A study of Mus musculus with 2 samples.

Results

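The primary granule genes described here are Mpo, Elane, Prtn3 and Ctsg, chosen by symbol, and they are 4 of the 27998 genes in the deposited tables, of which 17680 had a count in a kept cell. The study separated cells of wild-type C57BL/6 mouse fetal liver at embryonic stage E12.5, without a treatment or a genetic change, removed debris, dead cells and doublets by flow sorting, and captured the cells on a droplet platform that counts each messenger RNA molecule once by a unique molecular identifier (UMI). The 2 libraries are technical replicates of 1 liver sample by the study's methods, while the series record speaks of 2 cell suspensions, so the spread between the 2 values given for each gene may be technical only, and no statistical test between cell types was made. The authors' table keeps 5480 cells of library 1 and 5057 cells of library 2 and names their types, among them granulocytes (G, 157 and 130 cells), haematopoietic stem and progenitor cells (HPSC, 213 and 208 cells) and monocytes with Kupffer cells (Mo/KC, 56 and 58 cells).

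Primary, or azurophil, granules are the first granules that a developing neutrophil fills, at the promyelocyte stage, and they store the enzymes with which the mature cell kills microbes. Transcription of the genes for these enzymes is known to fall as the genes of the secondary and tertiary granules are switched on. A mature neutrophil therefore carries the proteins with little of their messenger RNA. Mpo encodes myeloperoxidase, the haem enzyme that makes hypochlorous acid, and Elane, Prtn3 and Ctsg encode the serine proteases neutrophil elastase, proteinase 3 and cathepsin G.

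In the GENCODE annotation of GRCm38, Mpo lies on the plus strand of chromosome 11 (chr11:87793581-87804413) and Ctsg on the minus strand of chromosome 14 (chr14:56099881-56102574). Prtn3 (chr10:79874476-79883174) and Elane (chr10:79886247-79888215) are neighbours on the plus strand of chromosome 10, with 3072 bases between them. The first 159 bases of the Prtn3 model overlap Plppr3 on the opposite strand, and Mpo overlaps the antisense gene Gm11505. Whether strand was used in counting is not given in the sources used here, so counts of overlapping stretches are uncertain. Plppr3 was counted at 41.5 and 40.0 CPM in HPSC of libraries 1 and 2 and at 30.1 and 32.7 CPM in G, where CPM is the UMIs of a gene among 1000000 UMIs. The genes nearest to the members were low in G, with Cfd at 0.529 and 0.527 CPM beside Elane, Lpo at 0.529 and 0 CPM beside Mpo, and Mcpt8 at 5.29 and 4.22 CPM beside Ctsg. Others a little farther away were higher there, at 229 and 196 CPM for Supt4a near Mpo, 141 and 139 CPM for Ptbp1 near Prtn3 and 124 and 118 CPM for R3hdm4 near Elane.

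The promoter windows are printed because the 4 genes were all highest in G, and the windows allow a reader to see which short motifs of myeloid factors they share. Each window holds the 250 bases before the RefSeq start of the gene on GRCm38.p6, read 5′ to 3′ on the gene's own strand. The 4 windows are chr11:87793534-87793783 for Mpo, chr10:79886062-79886311 for Elane, chr10:79879417-79879666 for Prtn3 and chr14:56102575-56102824 for Ctsg. For Mpo, Elane and Prtn3 the RefSeq start lies downstream of the start of the GENCODE model. Capitals mark matches, on either strand, to the letters searched, which were GAGGAA for PU.1, AACNG for MYB, TGTGGT for RUNX and TTGCNNAA for C/EBP.
Mpo: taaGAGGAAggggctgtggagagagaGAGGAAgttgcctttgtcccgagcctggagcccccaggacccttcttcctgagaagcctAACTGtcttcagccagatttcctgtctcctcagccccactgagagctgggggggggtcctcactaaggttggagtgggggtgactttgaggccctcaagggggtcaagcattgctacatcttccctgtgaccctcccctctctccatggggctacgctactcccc
Elane: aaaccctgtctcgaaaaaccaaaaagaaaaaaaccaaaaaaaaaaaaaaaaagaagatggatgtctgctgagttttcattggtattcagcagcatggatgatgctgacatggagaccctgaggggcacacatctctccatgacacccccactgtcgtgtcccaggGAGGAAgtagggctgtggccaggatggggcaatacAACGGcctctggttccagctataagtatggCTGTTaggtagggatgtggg
Prtn3: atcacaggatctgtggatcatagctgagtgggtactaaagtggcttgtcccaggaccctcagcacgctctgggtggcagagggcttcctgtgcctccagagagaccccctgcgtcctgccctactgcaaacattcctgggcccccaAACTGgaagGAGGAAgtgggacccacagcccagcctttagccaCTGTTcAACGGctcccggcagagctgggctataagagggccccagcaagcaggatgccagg
Ctsg: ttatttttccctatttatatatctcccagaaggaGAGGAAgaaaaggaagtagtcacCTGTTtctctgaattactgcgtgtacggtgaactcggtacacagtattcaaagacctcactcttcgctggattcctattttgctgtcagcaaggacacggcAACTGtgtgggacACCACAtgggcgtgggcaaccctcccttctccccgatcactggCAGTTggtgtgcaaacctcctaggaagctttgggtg
GAGGAA was found in all 4 windows, and 23.1% of 27025 promoter windows of the same length hold it. AACNG was also in all 4, against 74.1% of all windows, and 17.3% of all windows hold both. In Elane the GAGGAA began 85 bases and an AACGG 50 bases before the start, and in Prtn3 they began 95 and 55 bases before it. TGTGGT was found only in Ctsg (14.2% of all windows), and TTGCNNAA was in none of the 4 (9.55%). No match overlapped another. These matches are descriptions of the letters in the windows and show no binding.

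The deposited counts were summed over the cells of each type in each library and divided by the total UMIs of those cells. The libraries held 51969226 and 62738015 UMIs in their kept cells, with medians of 6261 and 9774 per cell, and the shallowest kept cell had 504 UMIs in library 1 and 4387 in library 2. Of the kept barcodes, 31 occurred in both libraries, 18 of them with the same type, and none of those 18 was G, HPSC or Mo/KC. The labels were checked against marker genes. All 6 granulocyte markers were detected in G, at a summed 59566 and 48153 CPM, against 69.6 and 51.2 CPM in HPSC. The 6 markers of HPSC summed to 698 and 654 CPM in HPSC and to 317 and 332 CPM in G. Of the 13 markers of Mo/KC, 13 and 12 were detected in Mo/KC, at 3996 and 2751 CPM. The granulocyte markers, some of which monocytes also express, summed to 7014 and 9233 CPM in Mo/KC, with Ly6g at 0. Markers of red cells were present in all 3 types, at 9644 and 16799 CPM in HPSC, 10159 and 25989.7 CPM in G and 6726 and 22283 CPM in Mo/KC.

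All 4 genes were highest in G. Mpo was counted at 4502 CPM in library 1, with an exact 95% Poisson interval from 4407 to 4599, and 4009 CPM (3919 to 4100) in library 2. Prtn3 followed at 2656 and 2561 CPM. Elane reached 1159 and 1103 CPM. Ctsg was the lowest, at 413 CPM (384 to 443) and 545 CPM (513 to 579.7). The order Mpo, Prtn3, Elane, Ctsg was the same in both libraries, and no interval of one gene overlapped that of the next. UMIs count molecules at their 3′ end, so these levels were not divided by gene length, although genes may differ in how well they are captured. All intervals here cover counting error only.

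In HPSC the same genes fell into an upper and a lower pair. Mpo stood at 739.9 and 725 CPM and Prtn3 at 531 and 588 CPM. Ctsg was at 15.9 CPM (12 to 20.8) and 31.4 CPM (25.5 to 38.2), and Elane was at 2.61 and 2.88 CPM, from 9 UMIs in each library. Elane was therefore above Ctsg in G and below it in HPSC. In library 2 a single HPSC held 45 of the 98 Ctsg UMIs. Without the 2 richest cells of each library Ctsg stood at 12 and 14 CPM, so that the gap between the libraries rested on very few cells.

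Mo/KC held yet another order. Prtn3 led with 900.3 and 756 CPM, ahead of Mpo with 675 and 551 CPM. Elane was at 324 CPM (283 to 369.9) and 128 CPM (105 to 153). Ctsg was nearly missing, with 5 and 12 UMIs, or 7.37 and 13.6 CPM. Elane differed 2.54-fold between the libraries (2.02 to 3.22), and 2 cells of library 1 held 144 of its 220 Elane UMIs. Without the 2 richest cells of each library Elane stood at 118 and 79.7 CPM.

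**Figure D1:**
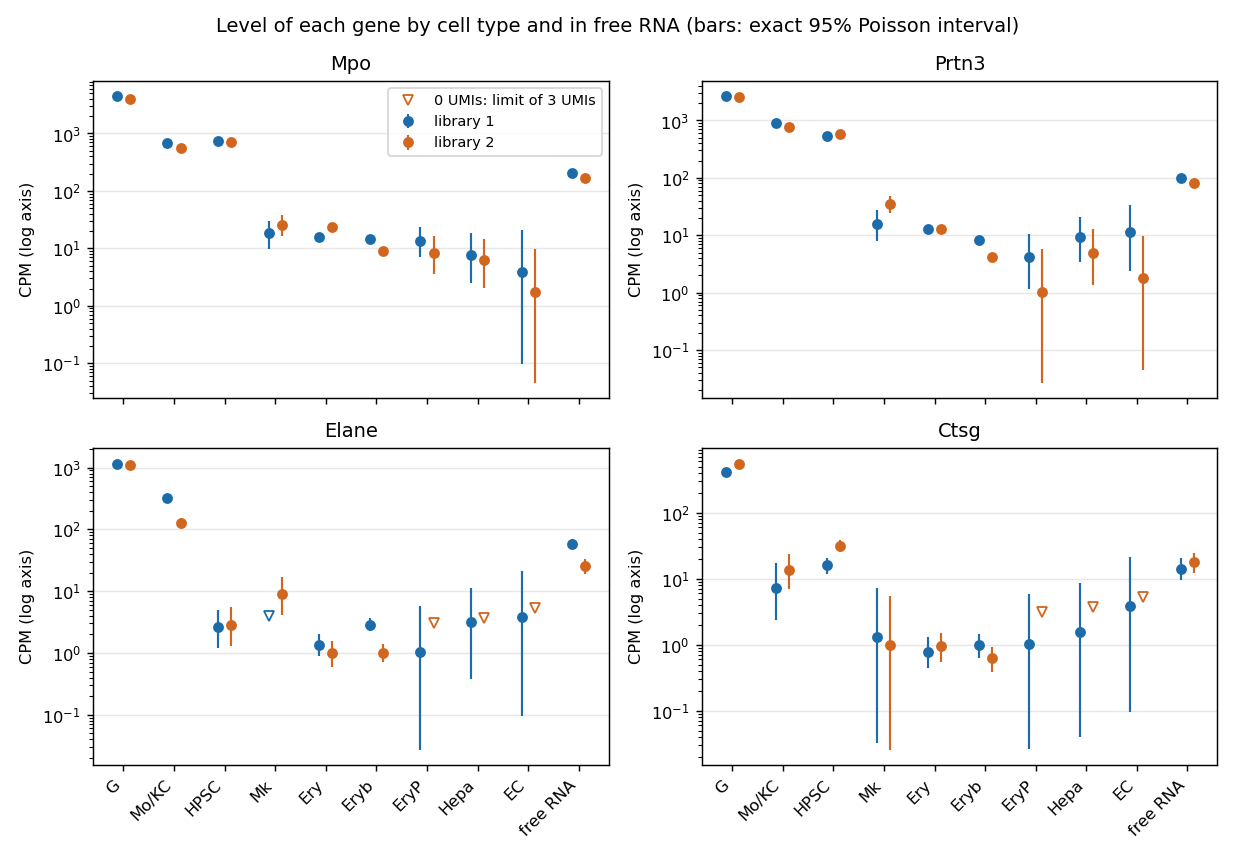
Level of Mpo, Prtn3, Elane and Ctsg in CPM (log axis) in each cell type and in free RNA, with 1 point per library, exact 95% Poisson intervals as bars and open triangles at the 3-UMI limit where no UMI was counted. Each gene is highest in G, and Elane in HPSC (2.61 and 2.88 CPM) lies among the types with few granule gene UMIs while Mpo (739.9 and 725 CPM) does not.

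Every other type held the 4 genes at low levels. Their sum was 35.1 and 71.0 CPM in megakaryocytes (Mk), 26.9 and 14.9 CPM in the erythroblasts named Eryb, and between 3.53 and 22.9 CPM in hepatoblasts and endothelial cells (Hepa and EC). These Mk values rested on 27 and 72 UMIs. Among the red cell progenitors the authors' subcluster Ery 1 stood apart, with Mpo at 22.8 and 33.8 CPM and Prtn3 at 20.5 and 19.2 CPM. In Ery 2 these values were 8.49 and 12.3 CPM for Mpo and 4.79 and 6.09 CPM for Prtn3. Against Eryb, Mpo in Ery 1 was 1.54-fold higher in library 1 and 3.70-fold in library 2. Over both libraries Ery 1 exceeded Ery 2 2.72-fold for Mpo (exact 95% interval 2.30 to 3.23) and 3.66-fold for Prtn3 (2.92 to 4.62). No such excess was seen for Elane (0.934-fold, 0.493 to 1.77) or Ctsg (0.489-fold, 0.213 to 1.06), whose counts of 11 to 22 UMIs leave wide intervals.

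The distance between G and HPSC differed greatly among the genes. Over both libraries Elane was 413-fold higher in G (exact 95% interval 261 to 698), Ctsg 20.6-fold (17.5 to 24.4), Mpo 5.81-fold (5.62 to 6.00) and Prtn3 4.67-fold (4.5 to 4.85). By library the ratio of Ctsg was 25.9 and 17.4, and that of Elane 444 and 383, each resting on 9 UMIs in HPSC. A gene was counted as higher where it was at least 4-fold higher in G in both libraries, among genes with at least 50 CPM in 1 of the 2 types in each library, and a gene without a UMI was taken at the 3-UMI limit. All 4 of the primary granule genes met this, against a background of 107 of 2862 genes (3.74%). Elane (2.61 and 2.88 CPM in HPSC) and Ctsg (15.9 and 31.4 CPM) reached 50 CPM only in G. For Elane the filter alone thus fixed the call in advance, and for Ctsg it favoured the call. The median log2 fold change of the 4 genes was 3.47, and that of all genes tested was -0.20.

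A list of 8 genes tied to granules or to granulocyte progenitors moved in part with them. Of these 8, chosen with earlier results known, 5 were at least 4-fold higher in G, against 3.74% of all genes. They were Ms4a3, Prss57, Serpinb1a, Lyz2 (70.0-fold and 50.7-fold in libraries 1 and 2) and Cd63 (10.1-fold and 8.85-fold). Neither Ms4a3 nor Prss57 reached 50 CPM in HPSC in both libraries, so both passed the filter through G, which favoured their calls. Cst7 (3.94-fold and 3.30-fold) was short of the threshold. None was at least 4-fold lower (1.26% of all genes were), and the median log2 fold change was 2.94. Ms4a3, a membrane protein gene of granulocyte and monocyte progenitors, was 179-fold and 106-fold higher in libraries 1 and 2. Prss57, which encodes a further serine protease of the same granules, was 29.6-fold and 32.1-fold higher. Serpinb1a, an inhibitor of these proteases, was 6.71-fold and 5.75-fold higher, as against 2.59-fold and 2.41-fold for Srgn, the proteoglycan that holds granule proteins. Ctsc, the peptidase that activates the serine proteases, was 3.30-fold and 3.0-fold higher and so below the threshold, and it was highest in Mo/KC, at 1703 and 1305 CPM.

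Of 11 late genes, of later granules or maturing granulocytes, 8 were tested. All 8 were higher in G (median log2 fold change 9.74), against 3.74% of all genes. None of the 8 reached 50 CPM in HPSC in both libraries, so they passed the filter through G, which favoured these calls. Some were also among the markers used to check the G label. Of 7 myeloid transcription factors 6 were tested and only Cebpe, the factor of late granulocyte differentiation, was higher. Cebpe was 216-fold and 303-fold higher, and it too passed the filter through G. Cebpa was 2.23-fold and 2.95-fold higher and Spi1, which encodes PU.1, 1.79-fold and 1.61-fold. Irf8, a monocyte factor, was lower in G than in HPSC, at 0.586-fold and 0.857-fold, both short of 4-fold.

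Against Mo/KC, 2 of the 4 genes were at least 4-fold higher in G in both libraries, where 55 of 2791 genes (1.97%) met the same rule. They were Mpo (6.67-fold and 7.27-fold) and Ctsg (56.0-fold and 40.2-fold). Ctsg, at 7.37 and 13.6 CPM in Mo/KC, reached 50 CPM only in G, so the filter favoured its call. Elane was 3.58-fold and 8.64-fold higher and Prtn3 2.95-fold and 3.39-fold. None of the 4 was at least 4-fold lower in G, as 2.9% of genes were, among them Ctsc. Between Mo/KC and HPSC the direction differed by gene, since over both libraries Elane was 77.8-fold higher in Mo/KC (48.4 to 133) and Prtn3 1.47-fold higher (1.37 to 1.56), while Ctsg was at 0.467 of its HPSC level (0.265 to 0.773) and Mpo at 0.826 (0.769 to 0.885). For Elane the ratio was 124 in library 1 and 44.3 in library 2. For Mpo library 1 alone gave 0.912 with an interval that included 1. For Ctsg library 1 gave 0.462 (0.144 to 1.14), and 2 cells held all 12 Ctsg UMIs of Mo/KC in library 2. In the 63 Mo/KC cells without a C1q UMI, described below, Mpo was at 998 and 841 CPM, above its 739.9 and 725 CPM in HPSC. The direction for Mpo thus depended on which Mo/KC cells were taken. Against red cell progenitors (Ery), Mpo and Prtn3 were the 2 genes that could be tested, and both were at least 4-fold higher in HPSC, as were 6.47% of 3012 genes. Both reached 50 CPM only in HPSC, so the filter favoured these calls. Elane and Ctsg reached it in neither type.

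**Figure D2:**
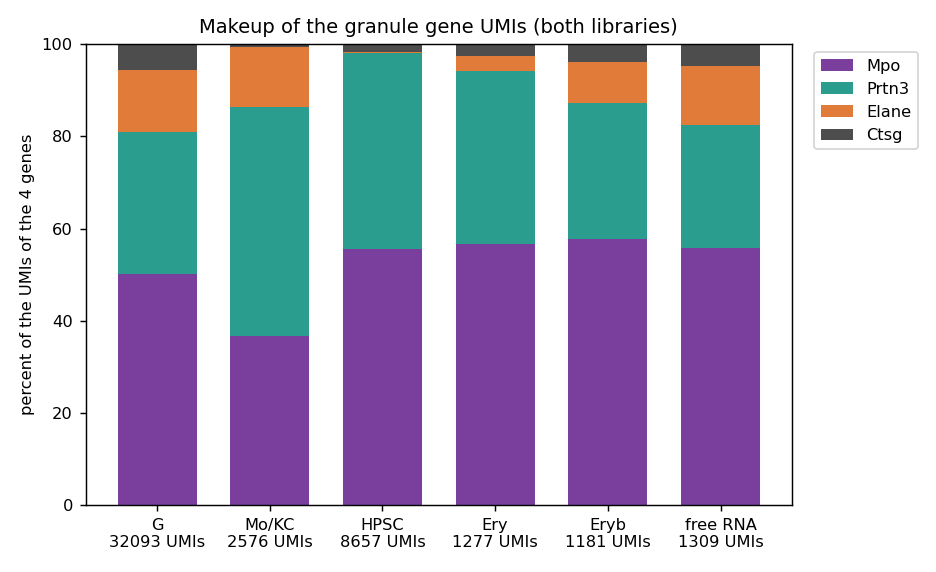
Percent of the UMIs of the 4 genes that came from each gene, by cell type and in free RNA, both libraries together, with the number of UMIs under each bar. Elane made up 13.3% in G and 12.9% in Mo/KC but 0.208% in HPSC, and Ctsg 5.66% in G but 0.660% in Mo/KC. By library the Elane share was 17.0% and 8.81% in Mo/KC, against 13.3% and 13.4% in G.

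The makeup of the 4 genes as a share of their own UMIs is independent of how many UMIs a type has. In G, 50.2% of these UMIs were Mpo, 30.8% Prtn3, 13.3% Elane and 5.66% Ctsg. In HPSC, Mpo and Prtn3 made up 55.6% and 42.4%, Ctsg 1.77% (exact 95% binomial interval 1.5 to 2.07) and Elane 0.208% (0.123 to 0.328). In Mo/KC the largest share was that of Prtn3, with 49.7%, and the smallest that of Ctsg, with 0.660% (0.385 to 1.05).

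Single cells differed far more than the libraries did. The 287 G cells ranged from 0 to 749 UMIs of the 4 genes, with a median of 55. At least 100 were counted in 109 G cells, and none at all in 88. The 421 HPSC ranged from 0 to 195, with a median of 13, and 4 of them reached 100. To compare cells at 1 depth, each was thinned at random to 3600 UMIs, which left out 21 G cells, 2 HPSC and 10 Mo/KC, all of library 1. At least 1 UMI was then found in 69.9% of G (64.0 to 75.4), in 82.1% of HPSC (78.1 to 85.7) and in 55.8% of Mo/KC (45.7 to 65.5). Without thinning these shares were 69.3%, 91.9% and 59.6%. In Eryb, which should lack the genes, the share was 7.42% of 6977 cells after thinning. Before thinning the median depths were 5613 and 8982.5 UMIs per cell in Eryb, 10550.0 and 14769 in G, and 16053 and 14956 in HPSC. The genes were thus detected in a smaller share of G than of HPSC, although their level was 6.43-fold higher (6.28 to 6.59). Among cells deep enough to be thinned to 7200 UMIs, the shares were 87.9% of G and 87.6% of HPSC, so the lower share in G was not seen there. That depth also changed which G cells were compared. The 80 G cells with 20% or more of their UMIs from the 11 late genes, described below, had a median of 5559.5 UMIs. Most of them were therefore left out, and only 11 of the 80 had a UMI of the 4 genes. The part of this in the change was not tested.

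The share in G differed between libraries, at 64.0% in library 1 and 76.2% in library 2. Library 1 kept cells down to a much lower depth. Among cells with at least 4387 UMIs, the least in any kept library 2 cell, 70.3% of 128 library 1 G cells and 78.5% of 130 library 2 G cells had a UMI of the 4 genes before thinning. The part of the depth cutoff in the rest of the gap was not tested.

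By gene, Mpo was found in 66.8% of thinned HPSC and 65.4% of thinned G, and Prtn3 in 68.5% and 68.4%. The separation lay in how much each cell held, since the highest thinned HPSC had 14 Mpo UMIs and the highest G cell 54, with medians of 2 and 8. Elane was found in 1.43% of HPSC (0.527 to 3.09) and 38.3% of G (32.5 to 44.5), and Ctsg in 4.30% (2.57 to 6.70) and 24.1% (19.1 to 29.7). In Eryb after thinning, Elane was found in 0.731% of cells and Ctsg in 0.373%. For Elane the interval in HPSC overlaps that in Eryb (0.545 to 0.960), so a difference from Eryb was not detectable at this depth.

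**Figure D3:**
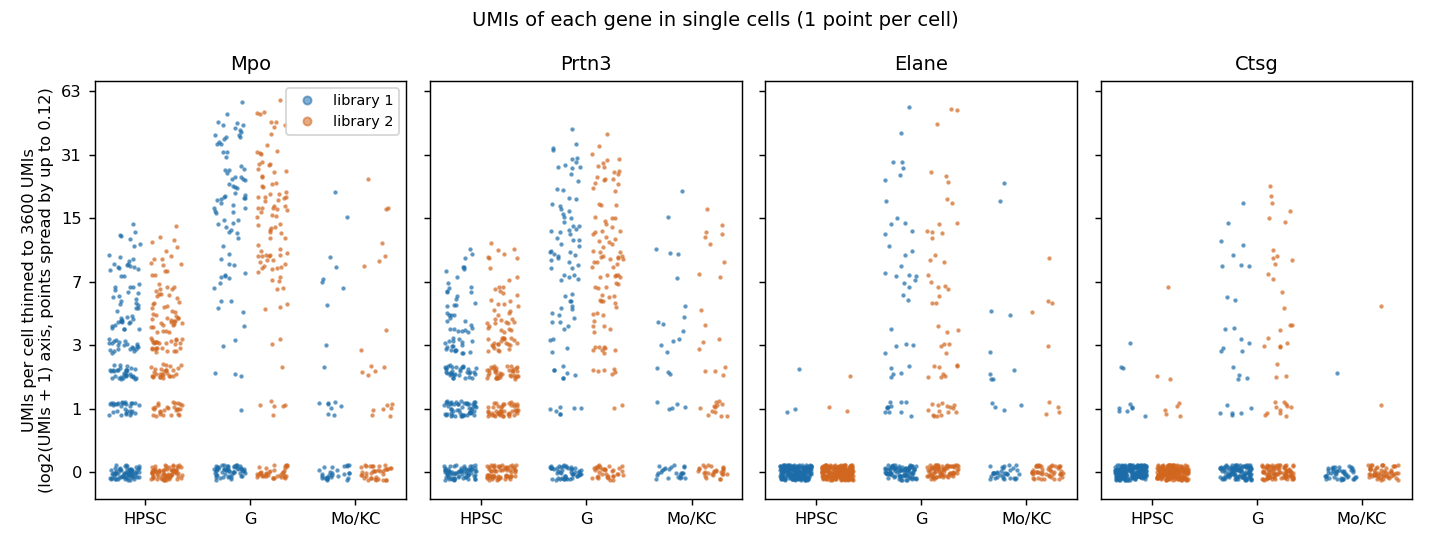
UMIs of each gene in single HPSC, G and Mo/KC cells thinned to 3600 UMIs, on a log2(UMIs + 1) axis with points spread by up to 0.12, coloured by library. HPSC form a continuous range for Mpo up to 14 UMIs, G cells reach 54, and Elane and Ctsg are at 0 in nearly all HPSC.

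The 10% of thinned HPSC with the most UMIs of the 4 genes held 34.2% of them, and the top 10% of G held 37.8%. By gene, the richest 10% of G held 34.8% of Mpo and 37.2% of Prtn3 but 70.1% of Elane and 79.7% of Ctsg. In HPSC these shares were 37.3% for Mpo and 37.5% for Prtn3, and 100% for the few UMIs of Elane and Ctsg. In unthinned HPSC the commonest pattern was Mpo with Prtn3 and neither of the others, in 269 of 421 cells, and 34 cells had none. All 38 HPSC with a Ctsg UMI also had Mpo and Prtn3. They held Mpo at 1741 CPM and Prtn3 at 1332 CPM, had a median of 18221 UMIs per cell, and 3 of them had an Elane UMI. In G all 4 genes occurred together in 68 of 287 cells, all but Ctsg in 61, and Mpo with Prtn3 alone in 33. In Mo/KC, 24 of 114 cells had Mpo, Prtn3 and Elane without Ctsg and 3 had all 4.

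Across single G cells the genes varied together. The mean of the 6 pairwise Spearman correlations was 0.638 over 136 thinned cells of library 1 and 0.584 over 130 of library 2. The closest pair was Mpo and Prtn3, at 0.865 and 0.800, and the loosest was Prtn3 and Ctsg in library 1, at 0.509, and Elane and Ctsg in library 2, at 0.372. In HPSC the mean was 0.197 and 0.203, over 211 and 208 cells, where Mpo and Prtn3 reached 0.527 and 0.538 and the pairs with Elane or Ctsg were too sparse to read. In Mo/KC it was 0.473 and 0.507, over 46 and 58 cells. Cells of 1 library share its free RNA and its depth, and these correlations are descriptions without a test.

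The genes most like each member in thinned G cells were ranked by the mean over libraries of Pearson's r of log2(UMIs + 1), among 3309 genes with a UMI in at least 10% of these cells in each library. For Mpo they were Prtn3 (0.86), Calr (0.79), which encodes the chaperone calreticulin, Srgn (0.78), the ribosomal protein gene Rpl3 (0.78) and Plac8 (0.77). For Prtn3 they were Mpo and 4 ribosomal protein genes, Rpl3, Rpl10, Rps2 and Rps18, between 0.70 and 0.72. Elane was most like Ms4a3 (0.73), ahead of Prtn3 (0.69), Mpo (0.57), Srgn (0.52) and Prss57 (0.48). Ctsg was less like any gene, with Mpo first at 0.49. The gene most opposite to Mpo was Ltf, lactoferrin of the secondary granules, at -0.87. In HPSC, among 3681 genes, Mpo and Prtn3 were most like each other (0.55), and Calr (0.37 and 0.35) and the chemokine gene Ccl9 (0.34 and 0.34) came next for both.

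To follow the genes through maturation, G cells were ranked on the percent of UMIs, called the late share, from 11 late genes. These genes of later granules or maturing granulocytes were Ngp, Camp, Ltf, Lcn2, S100a8, S100a9, Mmp8, Mmp9, Chil3, Ly6g and Retnlg. In 5 groups of equal size within each library, the sum of the 4 genes was 6388, 9567, 15948, 5459 and 176 CPM from the lowest to the highest share. The sum in the last group was 0.0276 of that in the first. In library 1 the last group held no UMI of any of the 4 genes in 31 cells, which allows up to 3 UMIs, and in library 2 it held 65 UMIs in 26 cells. The fourth group did not span the same range in each library. Its late share ran from 16.5% to 26.5% in library 1 and from 4.58% to 17.2% in library 2, so fixed ranges, chosen after the data had been seen, were used to compare them.

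In these ranges all 4 genes were highest between 0.1 and 10% of late share. Their sum was 7993 CPM in 119 cells with a late share below 0.1%, 17121 CPM in 56 cells from 0.1 to 10%, 3687 CPM in 32 cells from 10 to 20%, and 76.7 CPM in 80 cells at 20% or more. The sum peaked in the same range in each library, at 18445 and 15946 CPM. Cells with at least 10 UMIs of the 4 genes were 112 of 119, 49 of 56, 14 of 32 and 0 of 80. Median depth moved along the same ranges, from 18598 to 14769, 11117.5 and 5559.5 UMIs per cell, and its part in the cell counts was not tested, whereas CPM is a share of the UMIs. Markers of other cells moved over the same ranges. Hbb-bs, an adult beta-globin gene of red cells, was at 6974, 22541, 31325 and 3804 CPM, and the eosinophil gene Prg2 at 137, 933, 551 and 3.93 CPM, and their part in the courses of the 4 genes was not tested.

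The genes did not follow the same course. Mpo stood at 5063 and 4115 CPM in the lowest range, 8290.0 and 6740.4 CPM in the next, 1239 and 1085 CPM in the one after it and 6.24 and 10.6 CPM in the highest. Elane began lower and rose more, from 689.6 and 509.8 CPM to 3548 and 3090.1 CPM, and was still at 793 and 1123 CPM between 10 and 20%. Prtn3 went from 2507 and 2118 CPM to 5914 and 5072 CPM, then to 1227 and 1874 CPM. Ctsg had 508 and 534 CPM in the lowest range and 693 and 1043 CPM in the next. It had only 1 and 2 UMIs (5.71 and 11 CPM) between 10 and 20%, in 17 and 15 cells. In the fourth equal group of library 2 (late share from 4.58% to 17.2%) Ctsg still had 67 UMIs, in 5 cells. An order of loss in time was not tested. At 20% or more Ctsg had no UMI in either library, where 3 UMIs would be 9.37 and 15.9 CPM. There Prtn3 was the most abundant, at 34.3 and 95.5 CPM from 11 and 18 UMIs.

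**Figure D4:**
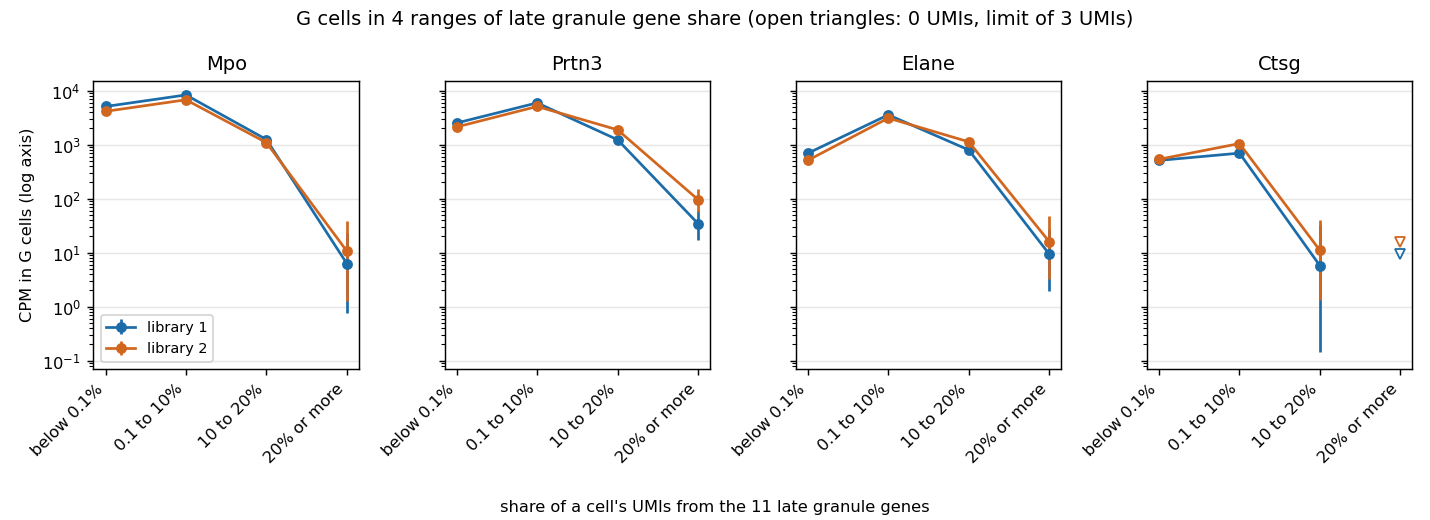
Level of each gene in CPM (log axis) in G cells grouped by the share of UMIs from the 11 late genes. There is 1 point per library, with exact 95% Poisson intervals as bars and open triangles at the 3-UMI limit where no UMI was counted. All 4 genes are highest between 0.1 and 10%, and Ctsg drops to 1 and 2 UMIs between 10 and 20%, where Elane is still at 793 and 1123 CPM.

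The other genes placed these ranges along granulocyte development, and the late genes among them were ordered by construction. Between 0.1 and 10% S100a9 and S100a8 were at 17591 and 12023 CPM over both libraries. Camp, Ngp and Ltf were at 4655, 1836 and 491 CPM there, so S100a8 and S100a9 weighed more in the late share than these. Cd34 and Cebpa, expressed in progenitors, were highest in the lowest range, at 258 and 98.0 CPM over both libraries, and Cebpa had no UMI in the highest. Cebpe went from 249 to 1152 CPM, and Ms4a3 and Prss57 peaked with the primary granule genes, at 1237 and 361 CPM between 0.1 and 10%. Gfi1, a repressor needed for neutrophil development, was also highest there, at 69.2 CPM. The 119 cells of the lowest range had no UMI of Ly6g and Ngp at 6.16 CPM, so that the markers of maturing granulocytes were nearly missing in 119 of the 287 cells named G.

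Some G cells carried markers of other lineages. Cpa3, a mast cell and basophil protease, was at 230.2 CPM in the lowest late-share range and at 0 above 10%. In 19 G cells with at least 10 Cpa3 UMIs, a division chosen after the data had been seen, Mpo was at 3578 CPM, Prtn3 at 1315 CPM, Ctsg at 84.9 CPM and Elane at 46.8 CPM. The Ctsg value rested on library 1, with 28 UMIs (143 CPM) against 1 UMI in library 2 (6.88 CPM). In the 208 G cells without a Cpa3 UMI Elane was at 1544 CPM and Ctsg at 505 CPM, while Mpo was at 4205 CPM. By library, Ctsg in those cells was at 320.2 and 684 CPM. In 9 G cells with at least 10 UMIs of the eosinophil granule genes Prg2 and Epx, Mpo was at 2166 CPM, Prtn3 at 2139 CPM and Elane at 312 CPM, and Ctsg had 1 UMI. The libraries differed widely over these few cells, with Mpo at 910.5 CPM in 3 library 1 cells and 2882 CPM in 6 library 2 cells, Prtn3 at 1568 and 2464 CPM and Elane at 25.3 and 476 CPM. Leaving out these 9 cells moved the sum of the 4 genes in G only from 8474 to 8588 CPM.

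HPSC were then ordered by their CPM of the 4 genes and divided into 5 groups in each library, so the rise of the 4 genes over the groups is given by construction. The sums were 81.6, 470.5, 927, 1473 and 3329 CPM over both libraries. Ctsg was found nearly only in the highest group, at 99.4 CPM, with 5.39 CPM in the one before it and 0 in the lower 2. Elane was at 1.53, 0, 0.758 and 0.770 CPM in the lower 4 groups and 9.60 CPM in the highest, which held 14 of its 18 UMIs, 6 and 8 by library. Among genes that took no part in the ordering, Cebpa, the factor needed to form granulocyte and monocyte progenitors, went from 5.34 to 6.75, 12.9, 23.1 and 64.4 CPM. In the lowest group Cebpa was at 4.31 and 6.50 CPM in libraries 1 and 2, and in the highest at 66.8 and 61.9 CPM. Irf8 did not rise steadily, at 58.0, 86.0, 48.5, 74.7 and 114 CPM. Of the 167 Irf8 UMIs in the highest group, 109 came from library 1. Spi1 was at 281, 256, 317, 325 and 400.3 CPM.

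Genes of stem cells and early progenitors differed in direction. Flt3, a receptor of early progenitors, was at 124 CPM in the lowest group and 41.8 CPM in the highest. Mecom, a stem cell factor, was at 8.39, 12.6, 9.10, 5.39 and 0.685 CPM from the lowest to the highest group. Its end values rested on 11 UMIs and 1 UMI. Meis1 was at 61.0, 68.3, 77.3, 50.1 and 25.4 CPM. Cd34 went the other way, from 299.7 to 425 CPM. Ccr2, a chemokine receptor of monocytes, was at 61.8 CPM in the lowest group and between 2.27 and 12.6 CPM in the other 4. Kit, the receptor of stem cell factor, showed no trend, at 41.2, 55.6, 49.3, 60.8 and 46.6 CPM. Cpa3 was at 0.763 CPM in the lowest and 51.4 CPM in the highest group. The groups differed in depth, with medians from 13347 UMIs per cell in the second group to 18272 in the highest. The part of depth was not tested, and no test was made of the differences between groups.

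**Figure D5:**
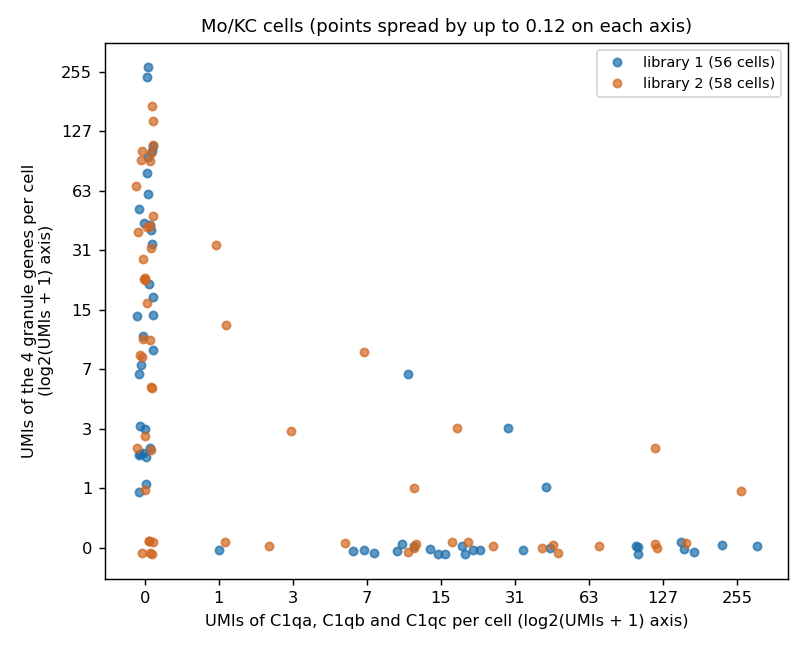
UMIs of the 4 genes in each Mo/KC cell against its UMIs of C1qa, C1qb and C1qc, both on log2(UMIs + 1) axes with points spread by up to 0.12, coloured by library. No cell with at least 10 C1q UMIs reaches 10 UMIs of the 4 genes, whereas 37 of 63 cells without a C1q UMI do.

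In Mo/KC the 4 genes and the C1q genes, which encode a complement component made by Kupffer cells and other macrophages, were found in different cells. The division by C1q UMIs was chosen after the data had been seen. In 63 cells without a C1q UMI the sum of the 4 genes was 2496 CPM (2399 to 2596), with 2814 and 2230.2 CPM in libraries 1 and 2. In 12 cells with 1 to 9 it was 435 CPM. In 39 cells with 10 or more it was 42.0 CPM (24.9 to 66.3), from 18 UMIs, with no UMI of Elane or Ctsg. The median depths of the 3 groups were 15573, 10340.5 and 10870.0 UMIs per cell.

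The same was seen when the cells were divided by their UMIs of the 4 genes. In 46 cells with none, C1qb was at 2273 CPM, and Marco, Timd4 and Cd5l, which mark Kupffer cells, were at 805, 259.8 and 187 CPM. In 39 cells with at least 10, C1qb was at 2.84 CPM and the other 3 had no UMI. Ly6c2, a surface marker of monocytes, had the reverse order, at 32.8 CPM in cells with none, 282 CPM in 29 cells with 1 to 9 and 544 CPM in those with at least 10. Irf8 was at 105, 192 and 301 CPM. Markers of maturing granulocytes were close to absent in the cells with at least 10, with Ngp at 4.26 CPM and no UMI of Ltf or Ly6g, and the 5 mast cell and basophil markers had no UMI in any Mo/KC cell.

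Free RNA, the messenger RNA that leaks from broken cells into the suspension and is captured in droplets without a cell, was read from barcodes with 1 to 50 UMIs. It held Mpo at 204 and 167 CPM, Prtn3 at 97.8 and 80.1 CPM, Elane at 58.8 and 25.5 CPM and Ctsg at 14.2 and 17.9 CPM. Over both libraries its makeup had the same order as in G, with 55.8% Mpo, 26.7% Prtn3 (30.8% in G), 12.7% Elane and 4.81% Ctsg. By library the Elane share was 15.7% and 8.79% in free RNA, against 13.3% and 13.4% in G. Over both libraries the level in G was between 22.9-fold and 29.9-fold that in free RNA for each of the 4 genes. For Elane this was 26.8-fold over both, 19.7-fold in library 1 and 43.2-fold in library 2. In Eryb, by contrast, the sum of the 4 genes was at 0.0594 of the free RNA level (0.0549 to 0.0643).

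The most free RNA that a type could hold was set by taking all its UMIs of Hbb-bs as free RNA. This gave at most 7.59% and 6.63% of the UMIs of HPSC, 8.04% and 10.3% of those of G, and 5.33% and 9.13% of those of Mo/KC. In Mo/KC 13.6 and 23.5 UMIs of the 4 genes could then be free RNA, and 1294 and 1282 were counted. In HPSC 98.1 and 60.1 could be free RNA, and 4448 and 4209 were counted. Mpo and Prtn3 in HPSC and Mpo, Prtn3 and Elane in Mo/KC were thus at least 36.2 times this number in both libraries. Elane in HPSC was counted 9 times in each library (exact interval 4.12 to 17.1), below the 15.4 that could be free RNA in library 1 and above the 5.28 in library 2, with both numbers inside the interval. Ctsg in HPSC was counted 55 and 98 times against 3.71 and 3.70, and in Mo/KC 5 and 12 times against 0.513 and 1.44. By the same limit, the 4 genes in Mk were counted 27 and 72 times against 21.1 and 37.1. In Ery they were counted 590 and 687 times against 710 and 554. Red cells make Hbb-bs themselves, and in Eryb the same rule gave an impossible 186% and 142% of the UMIs. For Ery this limit is therefore too loose to read. The part of free RNA in the levels of Mk and of the Ery subclusters was not tested.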

How the data were processed

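There were 2 libraries, which the study's methods call technical replicates of 1 liver sample, and their cells were grouped by the cell types in the authors' deposited cell table. The deposited count matrices hold whole UMI counts per gene and barcode that the authors made with bcl2fastq 2 and Cell Ranger 2.1.1 on mm10, with Seurat 3.2.0 for the cell types, per the submitters' processing notes, although the header of the library 1 matrix names a later Cell Ranger version. Doublets were removed by the authors' sort before droplet capture, which does not cover cells caught together in a droplet, and no doublet caller was run.

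UMIs were summed per type and library and divided by total UMIs (CPM). Depth was 51969226 and 62738015 UMIs. Intervals were exact at 95% (Poisson for levels, conditional binomial for ratios, Clopper-Pearson for shares), and a count of 0 was limited at 3 UMIs. Cells were thinned without replacement to 3600 UMIs with random seed 1, which left out shallower cells. No test between groups was made, since the libraries may not be independent, and no p-value was computed. The members and gene lists were chosen with earlier results of these data known. The genes named were the 4 members, the nearest 3 genes on each side and the 5 genes most like each member. Also used were lists of 8 granule or progenitor genes, 11 late genes and 7 myeloid factor genes. Genes named for other cell types came from marker lists. Alternatives varied thinning, depth, filters, free RNA limits, groupings and libraries. The intervals and thinning were tried on simulated cells that all had the same gene proportions. That trial does not cover genes whose UMIs lie in few cells. Gene positions came from GENCODE and promoters from RefSeq, both on GRCm38. Analyses used Python 3.11.15, numpy 2.4.6, pandas 2.3.3 and scipy 1.17.1.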

Additional observations from a re-analysis of the deposited data

Results flagged for a closer look

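Barcodes that were not called as cells but held at least 1000 UMIs and 200 genes stood out in library 2, in data outside the comparisons above. There were 3311 of them, with 3048 UMIs of the 4 genes (452 CPM, exact 95% Poisson interval 436 to 469), and 88 held at least 10 such UMIs, with up to 73 in 1 barcode. Elane made up 7.63% of the UMIs of the 4 genes in those 88. In library 1, 168 such barcodes held 8 UMIs of the 4 genes (20.2 CPM) and none reached 10. The shallowest cell kept had 504 UMIs in library 1 and 4387 in library 2, and the part of this cutoff in the difference was not tested.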

How the results depend on the processing

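Only the mean correlations in G and HPSC could change sign, and neither did. The order of G and HPSC by share of cells turned at 7200 UMIs, as given here. Of the values of 14 main results under the alternatives, 89 moved by less than the spread between libraries and 26 by more. These include the values of each library alone, from which that spread was computed. Such values tend to move by less than it by construction. As a mean of single-cell CPM the sum of the 4 genes was 6417 in G and 1253 in HPSC, a ratio of 5.12, and outside adult globin and mitochondrial genes it was 8979 in G, 1387 in HPSC and 495 in free RNA. Without the 4% of cells with most UMIs HPSC stood at 1264. Thinned to 7200 UMIs, the share of cells with a UMI was 87.9% in G, 87.6% in HPSC and 65.9% in Mo/KC. The lower share in G at 3600 UMIs (69.9% against 82.1%) was thus not seen among these deeper cells, which lacked most G cells of the highest late share. Without thinning the share was 91.9% in HPSC and 59.6% in Mo/KC, with at least 2 UMIs 69.2% and 44.2%, and with random seed 2 80.2% in HPSC. The top 10% of cells held 38.1% (HPSC) and 41.5% (G) without thinning, and 31.6% in G at 7200 UMIs. The mean correlation was 0.688 in G without thinning. In HPSC it was 0.302 without thinning, 0.233 at 7200 UMIs, 0.188 with random seed 2 and 0.219 as Pearson's r. With 4 late-share groups the last was 0.0722 of the first, and with 5 it was 0 in library 1 alone and 0.0508 in library 2 alone. Against 0.0276 for both, it was 0.00959 in fixed ranges, 0.0146 without the 4% of cells with most UMIs and 0.0104 without eosinophil-gene cells. With free RNA at 5% and 20% of UMIs, Mo/KC held 101 and 25.2 times the number it gives. With 1 library left out, this last value ran from 54.6 to 95.4, the sum in G from 8218 to 8730.3 CPM and in HPSC from 1289.6 to 1347 CPM. The cause of these moves was not tested. The alternatives without eosinophil-gene cells, with fixed late-share ranges and with a minimum of 4387 UMIs were chosen after seeing the data. No paired analysis was possible because no result comes from a test.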
